A study of Rattus norvegicus with 52 samples.

Results

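The proteins of the cytosolic ribosome are encoded by a large set of genes that nearly every cell transcribes at a high level. Members of the set were taken by symbol: every gene in the count files named Rpl or Rps with a number, plus Rplp0, Rplp1, Rplp2 and Rpsa. This gave 82 of 17356 genes, of which 46 carry a large-subunit symbol, 33 a small-subunit symbol (Rpsa included) and 3 belong to the stalk. The 82 genes were followed through 48 RNA-seq libraries of sorted rat mammary epithelial cells.

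All animals were females. At 9 weeks, virgin ACI rats of genotype Cdkn1b+/+ or Cdkn1b-/- gave 16 libraries, with 2 libraries per genotype for each of 4 sort gates. The gates were basal/myoepithelial (Cd24+ Cd29 high), luminal progenitor by Cd49b (Cd24+ Cd29 low Cd49b+), luminal progenitor by peanut lectin (PNA+), and mature luminal (Cd49b- PNA-). At 4 weeks there were 11 libraries of basal and luminal (Cd24+ Cd29 low) cells from ACI rats of both genotypes. Each group had 3 libraries except the knockout basal group, which had 2. The study's section on prepubertal rats prints Cd29 high for the luminal gate, where its gating elsewhere gives luminal cells as Cd29 low. At 6 weeks there were 9 libraries, also from ACI rats, with 3 of wild-type basal cells and 2 in each of the other groups. The ages are as labelled, while the study's text gives both groups as ranges of weeks. The titles of these animals carry a further number, 3.4 for the first wild-type animal and 4 for the others at 4 weeks, and 5.3 for the first knockout animal and 5.9 for the others at 6 weeks, and the labels do not say what it stands for. Titles also show that basal and luminal libraries of 4 and 6 weeks mostly came in pairs from the same animals. The fourth experiment had 12 libraries of basal and luminal cells from ACI rats and from Brown Norway (BN) rats, either untreated or treated with estradiol (E2). It had 2 libraries per group in ACI and 1 per group in BN, and the titles of the BN libraries name a pair of animals. Ages are not given in the labels of that experiment. By the study's methods, rats of 9 weeks received implants that were empty or held E2, with release over 3 weeks. Untreated here therefore means without E2. The knockout alleles are short deletions in the first coding exon, made in Sprague-Dawley rats and crossed onto ACI, so transcripts of the gene can still be counted. By the study's methods, glands for sorting came from an early and a later backcross generation. Which of these each library came from is not given here.

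Each ribosome is built from a small and a large subunit, and each subunit joins ribosomal RNA to a fixed set of proteins. Many messages for these proteins begin with a C followed by a run of pyrimidines, the terminal oligopyrimidine (TOP) tract, through which mTOR signalling adjusts their translation. Because they make up a large part of the messages of a growing cell, their summed level is often read beside the demand for protein synthesis.

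The TOP tract lies at the start of the transcript, so the 30 bases around it are shown for members that recur below. RefSeq (assembly GRCr8) gave a promoter for 66 of the 82 members, with 67 promoters in all. The counts were made on another build, rn6, so these coordinates are not those of the count files. Lines run 5′ to 3′ on the gene's strand, with 15 bases before the annotated start and 15 from it onward. Capitals mark a tract that opens at the start with C and at least 4 further pyrimidines.
Rpl19: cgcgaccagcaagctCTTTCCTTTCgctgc
Rpl31: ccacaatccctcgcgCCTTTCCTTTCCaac
Rpl28: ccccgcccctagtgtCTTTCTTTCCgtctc
Rpl10: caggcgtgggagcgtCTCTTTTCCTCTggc
Rplp0: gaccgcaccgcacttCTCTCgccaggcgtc
Rplp1: gcaggcgcatgtgatCCTTTCCTCagctgc
Rps27: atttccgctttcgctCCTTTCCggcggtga
Rpl22: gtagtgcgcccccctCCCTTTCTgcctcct
Rpl22l1: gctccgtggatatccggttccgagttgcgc
Rps27l: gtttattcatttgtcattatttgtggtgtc
Rpl4: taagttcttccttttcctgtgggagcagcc
Rpl3: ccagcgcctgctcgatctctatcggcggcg
Rps3: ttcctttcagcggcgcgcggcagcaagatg

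These windows lie at chr10:83519049-83519078 (plus strand) for Rpl19, chr9:49143096-49143125 (plus) for Rpl31, chr1:78083518-78083547 (minus) for Rpl28, chrX:157205835-157205864 (plus) for Rpl10, chr12:46718376-46718405 (minus) for Rplp0 and chr8:71290858-71290887 (minus) for Rplp1. Those of the small-subunit genes and the paralogs lie at chr2:177964592-177964621 (minus) for Rps27, chr8:76443643-76443672 (plus) for Rps27l, chr5:168117946-168117975 (plus) for Rpl22 and chr2:113683181-113683210 (plus) for Rpl22l1. Rpl4 is at chr8:73566462-73566491 (plus), Rpl3 at chr7:113507976-113508005 (minus) and Rps3 at chr1:163195762-163195791 (minus).

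A tract at the annotated start was found in 24 of the 67 member promoters (35.82%), against 2.63% of all 33469 promoters in the table. The longest ran for 12 bases, in Rpl10 among others. Rps27 and Rpl22 opened with a tract while their paralogs Rps27l and Rpl22l1 did not. In Rpl4 a pyrimidine run crossed the annotated start, and in Rps3 a run stood further upstream, so a start placed upstream could change the count. Apart from the tract, 4 motifs were searched on both strands from 250 bases before to 50 bases after the start. GGGCGG, the core of the Sp1 site, was in 40 of 67 (59.7%) against 33.1% of all promoters. The ETS-type motif CCGGAAGT was in 8 (11.94%) against 3.81%, and AAGATGGC, the core of the YY1 motif, in 5 (7.463%) against 3.17%. The TATA box TATAAA was in 8 (11.94%) against 14.2% of all promoters. A match of letters describes the window and not the use of a site.

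Of the reads that were assigned to a gene, members took 0.717% to 8.10%, the median of the 48 libraries being 1.91%. Depth in reads counted on genes was 21545344 to 33859550 at 9 weeks, 14674040 to 23045345 at 4 weeks, 7985619 to 16390460 at 6 weeks and 13659389 to 25280421 in the E2 experiment. The libraries therefore held 154062 to 1104249 reads on members. None of 36 pairs of libraries within groups agreed within sampling noise. Levels are given as CPM, read counts scaled to library size with TMM factors (a trimmed mean that sets most genes level) over the 48 libraries. Cdkn1b itself was measured at 10.3 ± 2.99 CPM (SD, n = 8) in wild-type and 3.09 ± 0.896 CPM (n = 8) in knockout libraries of 9 weeks, without overlap. At 4 weeks the values were 20.1 ± 9.39 (n = 6) and 10.7 ± 4.46 CPM (n = 5), and at 6 weeks 22.9 ± 13.7 (n = 5) and 15.9 ± 11.9 CPM (n = 4), with overlap at both ages. The level of Cdkn1b therefore checks the genotype labels at 9 weeks and not at 4 or 6 weeks. At 6 weeks the second luminal library labelled knockout stood at 33.8 CPM, between the wild-type luminal libraries at 29.3 and 40.4 CPM, while the other libraries labelled knockout stood at 9.54, 9.92 and 10.4 CPM. The third basal library labelled wild type stood at 3.20 CPM, below all 4 libraries labelled knockout. At 4 weeks the first luminal library labelled knockout stood at 17.4 CPM, within the 13.4 to 18.7 CPM of the wild-type luminal libraries, and the other 2 at 4.81 and 10.7 CPM. Cdkn1b thus went against the label, or failed to tell it, in 3 of the libraries that stand high below, which are named by their labels. In another of these, the first knockout basal library of 4 weeks, it went with the label. It stood there at 10.1 CPM, below the 14.7 to 38.4 CPM of the wild-type basal libraries of 4 weeks.

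**Figure D1:**
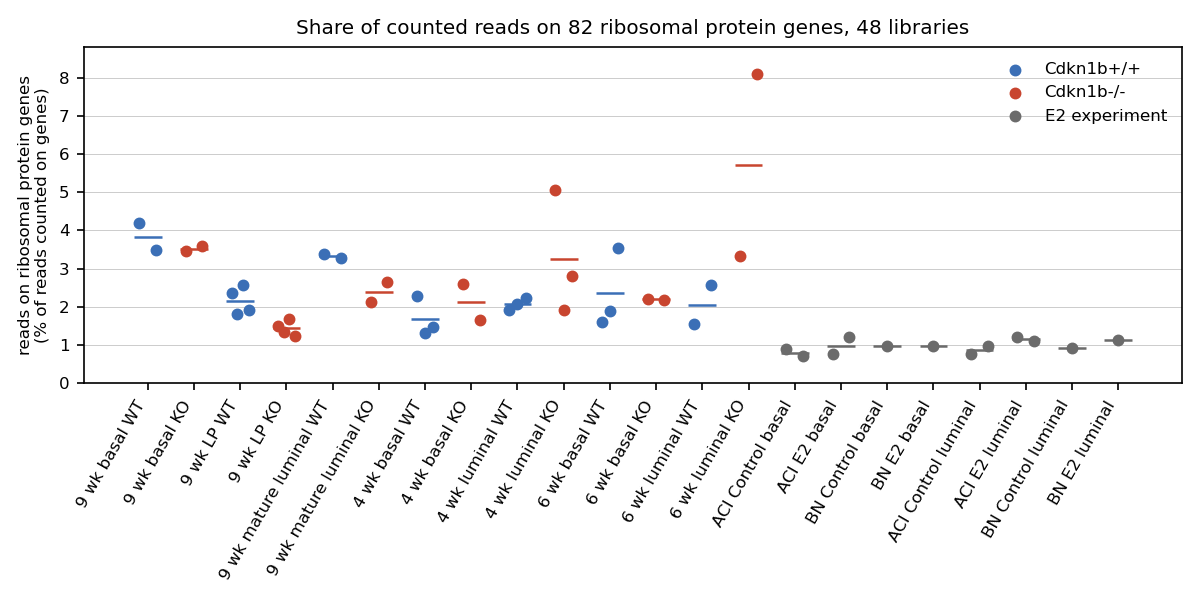
Share of gene-counted reads that fell on the 82 ribosomal protein genes, in percent, for each of the 48 libraries (points) by experiment, genotype and cell type, with a short line at each group's mean. The second luminal library labelled knockout of 6 weeks stands highest at 8.10%, the first luminal library labelled knockout of 4 weeks next at 5.06%, and the 12 libraries of the E2 experiment lie between 0.717% and 1.22%.

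Among the highest members by mean log2 CPM were Rpl3 at 10.23, the stalk base Rplp0 at 10.00, Rpl13 at 9.42 and Rpl4 at 9.35. Levels here are not per length, so the order mixes abundance with transcript length. Of the 82 members, 73 had at least 10 counts in every library. The other 9 were Rps9, Rplp2, Rpl39l, Rps6, Rpl3l, Rpl37a, Rps19, Rpl8 and Rps4y2. Rps9 had 0 counts in all 48 libraries, and Rplp2, the stalk partner of Rplp1, had 0 in 46. Of its 25 counts, 24 lay in the second luminal library labelled knockout of 6 weeks. Rps6, the target of the S6 kinases, reached 28 counts at most, and Rps19, a protein of the small subunit, 205. Values of these 9 genes are therefore uncertain as measures of their messages. The reference names 898 pseudogenes for 78 of the members, and 34.8% to 57.0% of the reads in the files aligned to more than 1 place and were not counted. How many of these reads came from members was not tested.

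Ribosomal protein genes shared much of their spread across the libraries of all experiments. The SD of log2 CPM over the 48 libraries had a median of 0.899 among the 73 well-counted members, from 0.481 for Rpl4 to 1.216. After the mean of the members in each library was subtracted, the median SD was 0.277. Rpl19 (0.138) and Rps7 (0.142) then varied least, while Rplp1 (0.594), Rpl4 (0.558), Rpl15 (0.531), Rpl22l1 (0.528), Rpl3 (0.520) and Rpl39 (0.516) varied most. Rps7 and Rpl15 were picked out here after their values were seen. The subtraction was not done for other genes, and how much of the shared spread lay between experiments was not tested. Of the 73 genes, 59 had their highest level in the second luminal library labelled knockout of 6 weeks and 71 their lowest in a library of the E2 experiment. Its ACI libraries held 0.717% to 1.22% of counted reads on members and its BN libraries 0.917% to 1.13%, all below the lowest library of the other experiments (1.24%). The experiment differs from the others in animals and in library set, which cannot be told apart.

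**Figure D2:**
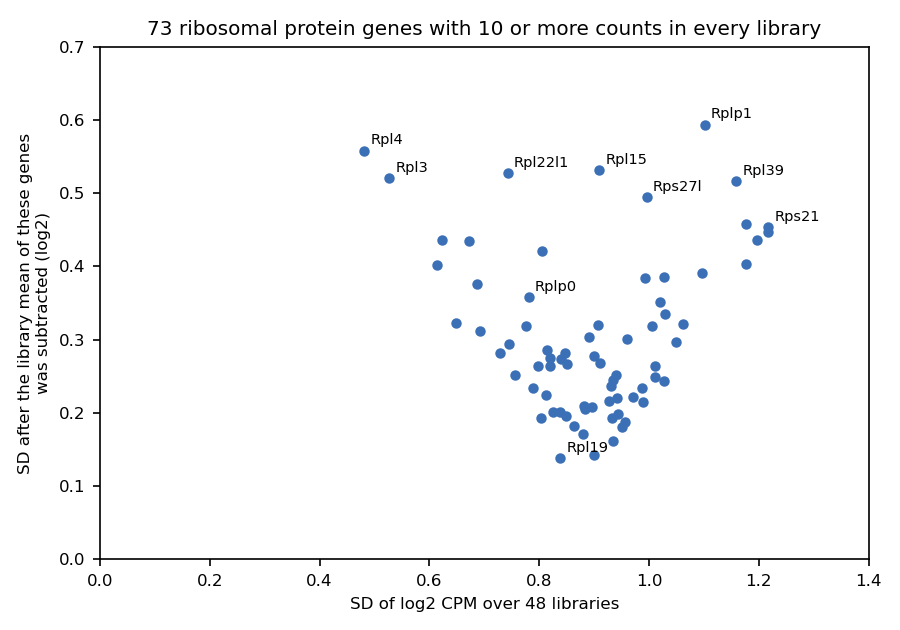
SD of log2 CPM over the 48 libraries for each well-counted member, before (horizontal) and after (vertical) subtracting the mean of the members in each library, both in log2 units. Most genes fall from near 0.899 to near 0.277, while Rplp1 stays at 0.594, Rpl4 at 0.558 and Rpl15 at 0.531.

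Luminal progenitors can form colonies and give rise to further luminal cells, while mature luminal cells are the differentiated cells of that layer and include those that sense hormones. In wild-type rats of 9 weeks, ribosomal protein genes were lower in luminal progenitors than in mature luminal cells. Members took 2.36% and 1.80% of counted reads in the Cd49b+ libraries and 2.57% and 1.93% in the PNA+ libraries, against 3.38% and 3.27% in mature luminal cells. Rplp0 stood at 1191, 1315, 1346 and 1355 CPM in the 4 progenitor libraries and at 2282 and 2985 CPM in the 2 mature luminal libraries. Rpl19, a protein of the large subunit, stood at 440, 399, 502 and 425 CPM against 739 and 875 CPM. Neither gene overlapped between the cell types, and the members as a group did the same: 70 of the 79 tested were lower in every progenitor library, where 21.2% of all 12809 tested genes were.

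Tested with edgeR (quasi-likelihood F test, p-values adjusted by Benjamini-Hochberg across all tested genes), 48 of 79 members passed 0.05. They were 47 lower and 1 higher in progenitors, and 5.97% of all tested genes were lower. The median log2 fold change of the members was −0.87, against −0.06 for all genes. The large subunit had 27 of its 45 tested members lower, with a median of −0.86, and the small subunit 19 of 32, with a median of −0.88. Before adjustment 69 members had a p under 0.05, as had 28.7% of all genes. Member genes are correlated with each other, so these counts are not counts of independent events.

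Of the well-counted members that passed, Rpl36a, a protein near the tRNA exit site, had the largest change. It stood at 65.1, 45.6, 76.3 and 49.5 CPM in progenitors and at 140 and 123 CPM in mature luminal cells, a log2 fold change of −1.14 (SE 0.26, adjusted p = 0.022). Rpl35a, mutated in some cases of Diamond-Blackfan anaemia, fell by 1.09 on the log2 scale (SE 0.33, adjusted p = 0.047). Rps27a, which is translated as a fusion with ubiquitin, stood at 244, 183, 296 and 212 CPM against 475 and 497 CPM. Its log2 fold change was −1.05 (SE 0.27, adjusted p = 0.030). In all 3 genes every progenitor library was below both mature luminal libraries.

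Members with a special role followed the same direction. Rplp0 fell by 1.01 on the log2 scale (SE 0.24, adjusted p = 0.024), and Rpsa, also known as the laminin receptor, fell by 1.01 (SE 0.26, adjusted p = 0.030). Rpl41, the smallest ribosomal protein, fell by 1.02 (adjusted p = 0.034). Rpl11, which together with Rpl5 and 5S RNA binds Mdm2, fell by 0.96 (adjusted p = 0.028). Its partner Rpl5 had a log2 fold change of −0.52 (adjusted p = 0.15), which did not pass. Rpl19 (−0.87, adjusted p = 0.027), Rpl28 (−0.88, 0.029) and the small-subunit protein Rps3 (−0.88, 0.042) were also lower. Rps28 (−0.81, 0.059) and Rpl23a (−0.79, 0.058) did not pass. Nor did Rplp1 (−1.49, 0.074), Rpl10 (−0.86, 0.059), Rpl38 (−0.75, 0.068), Rpl3 (−0.41, 0.18) and Rpl4 (−0.21, 0.62). Rpl3 and Rpl4, both among the highest members, had the smallest differences of the genes just named.

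The calls of Rps19 and Rpl37a rest on few reads. Rps19 had 25 to 46 counts in progenitors and 46 and 205 in mature luminal cells (log2 fold change −2.13, adjusted p = 0.033), and without the second mature luminal library its fold change was −0.74. Rpl37a, a zinc-ribbon protein of the large subunit, was the one member called higher, by 2.51 on the log2 scale (SE 0.75, adjusted p = 0.048). It had 8 to 20 counts in progenitors and 3 and 1 in mature luminal cells.

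**Figure D3:**
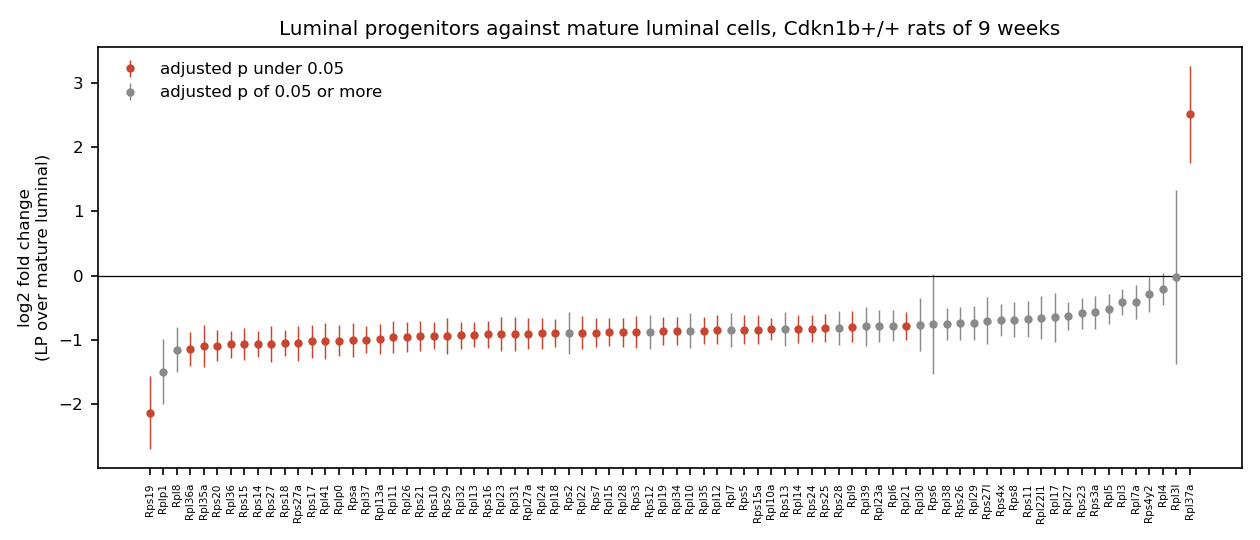
Log2 fold change of 78 of the 79 tested ribosomal protein genes between wild-type luminal progenitors (n = 4 libraries) and mature luminal cells (n = 2) of 9 weeks (vertical, log2 units), with genes ordered by that change, standard errors as bars and genes past an adjusted p of 0.05 in red. Most genes lie near the median of −0.87, with Rpl4 and Rpl3 closer to 0 and Rpl37a at 2.51.

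The 4 progenitor libraries carry the numbers 1 and 2 in both gates, and within a genotype equally numbered libraries shared their deviations, so they may come from 2 animals and the p-values may be too small. A block on the number still counts both gates of a number as separate libraries. With it, 74 members passed (73 lower), where 34.4% of all genes passed and 18.6% were lower. The count fell to 14, all lower, without the first Cd49b+ library, where 2.55% of all genes were lower. It fell to 0, as did the count over all genes, without the second Cd49b+ library, the second PNA+ library, or either mature luminal library, while the median stayed between −0.98 and −0.80. Over all reads in the files, which include those not assigned to a gene, members took 0.811% to 1.11% in progenitors and 0.982% and 1.17% in mature luminal cells, which overlap. Scaled by total counts in place of TMM, 33 members passed (32 lower, where 4.37% of all genes were), with a median of −0.63 where the median of all genes was 0.17. In bulk samples, fewer cells of a type and less RNA per cell cannot be told apart. Of 6 endothelial markers, 5 were called higher in progenitors, with a summed level of 311 to 641 CPM against 80.4 and 87.9 CPM. Their part in the difference was not tested.

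Genes of translation outside the set were read beside it. Rack1 and Fau, which encode ribosomal proteins under symbols outside the naming rule, were each lower in progenitors, by 0.91 and 0.96 on the log2 scale. Of 19 other TOP messages, 5 were lower and 0 higher by the same test (10 with an unadjusted p under 0.05), with a median of −0.43. Of 67 mitochondrial ribosomal proteins tested, 2 were lower and 0 higher, with a median of −0.51, and of 72 oxidative phosphorylation genes 1 was lower and 0 higher, with a median of −0.62. Of 35 initiation factors, 5 were higher and 3 lower, and of 46 ribosome biogenesis genes 1 was lower. Members with a tract at the start had a median log2 fold change of −0.87 and those without one −0.86.

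Basal cells of the same wild-type rats took 4.18% and 3.48% of counted reads on members, both above the 3.38% and 3.27% of mature luminal cells. The median difference between basal and mature luminal cells was −0.00. Only Rps4y2, a paralog of the small-subunit gene Rps4x, was called, where 20.9% of all genes were. It stood at 4.99 and 3.85 CPM in basal and at 14.1 and 10.0 CPM in mature luminal cells (log2 fold change −1.27, SE 0.32, adjusted p = 0.012). With the number as a block 3 members passed, all lower, where 17.4% of all genes were lower. At 4 weeks the median between wild-type basal and luminal cells was −0.29. edgeR called 0 of 79 members (0 with an unadjusted p under 0.05) and DESeq2 0, where 23.5% of all genes were called by edgeR.

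The next question was whether loss of Cdkn1b, a brake on cyclin-dependent kinases, went with the level of these genes. In luminal progenitors of 9 weeks, members took 1.49% and 1.33% (Cd49b+) and 1.69% and 1.24% (PNA+) of counted reads in knockout rats, each below every wild-type progenitor library. After TMM scaling the difference was small, with a median log2 fold change of −0.26 and 75 of 79 members below 0. edgeR's test called 0 members, where 3.4% of all genes were called, and DESeq2 called 1, where it called 8.56% of all genes. Before adjustment 5 members had a p under 0.05, 4 of them lower, as had 18.3% of all genes. The 4 were Rpl7a, Rpl29, Rps18 and Rps26. The groups did not overlap for 4 members, all lower, where 5.93% of all genes were lower without overlap. Scaled by total counts, 20 members were called lower, where 4% of all genes were, with a median of −0.60 where the median of all genes was −0.27. The result in progenitors therefore turned on the scaling.

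Pairs of libraries show the spread behind this. Of 79 members, 5 were higher in the first knockout Cd49b+ library than in the first wild-type one, but 46 were higher than in the second wild-type one. In the second knockout Cd49b+ library, 2 were higher than in the first wild-type one and 6 than in the second. In PNA+ cells, 69 of 79 members were higher in the first knockout library than in the second wild-type library, and 6 in the second knockout library. Against the first wild-type PNA+ library, 11 were higher in the first knockout library and 3 in the second. Rpl19 stood at 400 and 306 CPM (Cd49b+) and 523 and 355 CPM (PNA+) in knockout progenitors, which overlaps the wild-type values of 399 to 502 CPM. Its log2 fold change was −0.14 (SE 0.18, adjusted p = 0.74).

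Mature luminal cells of 9 weeks showed the same direction. Members took 2.12% and 2.65% of counted reads in knockout and 3.38% and 3.27% in wild-type rats. For 69 of 79 members both knockout libraries were below both wild-type libraries, where 16.8% of all genes were. Rplp0 stood at 1766 and 1667 CPM in knockout against 2282 and 2985 CPM in wild-type cells, a log2 fold change of −0.54 (SE 0.29, adjusted p = 0.79). The members' median was −0.30. edgeR called 0 of them, where 0.133% of all genes were called, DESeq2 called 0, and 3 had an unadjusted p under 0.05, as had 7.15% of all genes. In basal cells the median was 0.18, and −0.08 when scaled by total counts. There edgeR called 0 members (1 with an unadjusted p under 0.05), where 0.0546% of all genes were called, and DESeq2 0. The genotype effect in progenitors minus that in mature luminal cells had a median of 0.03. edgeR called 0 members (0 with an unadjusted p under 0.05), where 0% of all genes were called, and DESeq2 0.

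At 6 weeks the luminal libraries were set apart by 1 knockout library. Members took 1.56% and 2.56% of counted reads in the 2 wild-type libraries, and 3.33% and 8.10% in the first and second libraries labelled knockout. Rpl19 stood at 346 and 575 CPM in wild type and at 601 and 2897 CPM in knockout. Rpl41 stood at 180 and 512 CPM against 676 and 3788 CPM, and Rpl36a at 26.7 and 57.7 CPM against 76.9 and 565 CPM. In each gene the second library labelled knockout stood far above the other 3, while the first was close to the higher of the wild-type libraries.

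**Figure D4:**
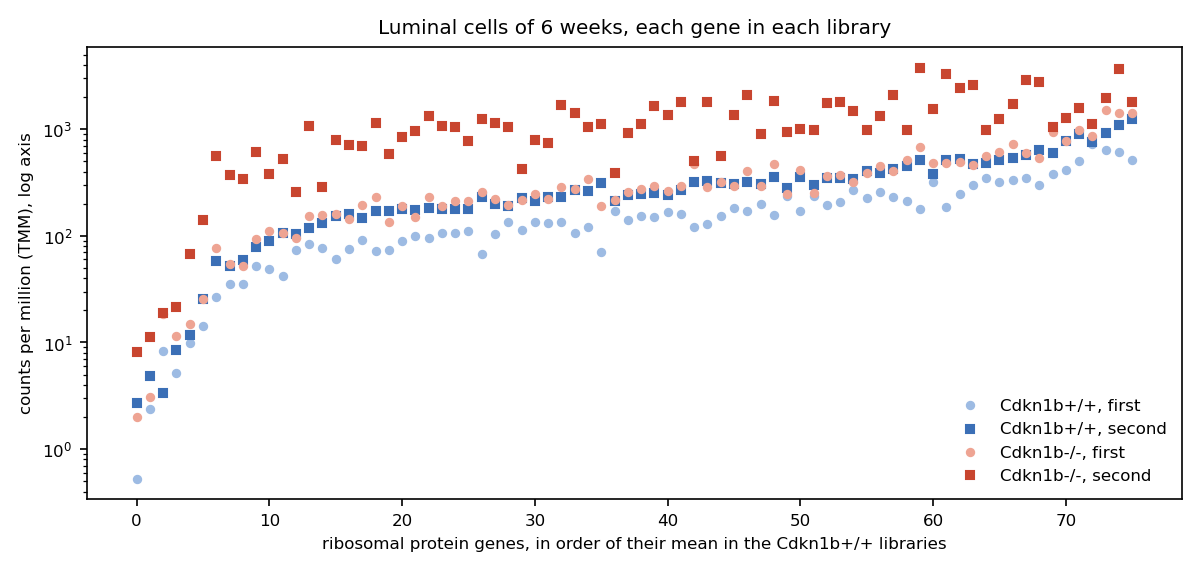
Level of ribosomal protein genes (CPM, log axis) in the 4 luminal libraries of 6 weeks, with a point for each gene and library and genes ordered by their wild-type mean. The 76 tested genes above 0 in each library are drawn. Of all 77 tested, the second library labelled knockout is above the other 3 for 76, and the first knockout library is above both wild-type libraries for 52.

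Between the 2 groups of luminal cells, the median log2 fold change of 77 tested members was 1.87 (knockout minus wild type), with 76 above 0, while the median of all genes was −0.01. The groups did not overlap for 52 members, all higher in knockout, where 23.3% of all genes were higher without overlap. edgeR's test called 0 members at an adjusted p of 0.05, where 0% of all genes were called, and the lowest adjusted p of a member was 0.19. Before adjustment 51 members had a p under 0.05, all higher, as had 16.4% of all genes in either direction. DESeq2 called 15 members, all higher, where it called 7.94% of all genes higher. Rpl36a had a log2 fold change of 2.97 (SE 0.92), Rpl41 of 2.72 (SE 0.86) and Rpl19 of 1.96 (SE 0.74). The difference of these 2 groups was therefore large, but by edgeR not beyond the spread between their libraries. By DESeq2 15 members passed, so the calls turned on the test.

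How much of this was 1 library was measured directly. Without the second library labelled knockout the median was 0.45, with 0 called. Without the first it was 2.55, with 53 called, all higher, where 6.51% of all genes were higher and the median of all genes was −0.67. The first knockout library was above the first wild-type library in 77 of 77 members, by a median of 0.94, but above the second wild-type library in 52, by 0.10. The 2 wild-type libraries differed by a median of 0.80, with 76 members higher in the second. The first knockout library thus stood closer to the second wild-type library than the wild-type libraries stood to each other. The second library labelled knockout was above the first in 76 members, by a median of 2.12.

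Against the mean of the other 3 luminal libraries, the second library labelled knockout was higher in 75 of 75 members with enough counts, by a median of 2.42 and with quartiles of 1.75 and 2.79. The range ran from 0.52 for Rpl4 to 3.52 for Rpl36a, and 70 members were over 1. Over all genes the median was −0.01, 28.1% were over 1 and 8.10% were above the median of the members. The members were therefore not shifted evenly. Rpl3 stood at 645 and 920 CPM in wild type and at 1514 and 1977 CPM in knockout, and Rplp0 at 520 and 1246 CPM against 1424 and 1785 CPM, so the 2 knockout libraries were closer in these genes. Rplp1 stood at 467 and 504 CPM in the 2 knockout libraries. Rps27, by contrast, stood at 188 and 513 CPM in wild type and at 480 and 3281 CPM in knockout.

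Other gene groups also stood apart in the same library. Oxidative phosphorylation genes were above the mean of the other 3 libraries by a median of 2.29, mitochondrial ribosomal proteins by 1.17 and other TOP messages by 1.31. Elongation factors were 0.46 above and initiation factors 0.01 above, while ribosome biogenesis genes were 0.79 below. The low biogenesis genes were not particular to this library. Against the other libraries of their cell type, they stood at −0.345 in the first knockout luminal library of 6 weeks. In the knockout basal libraries of 6 weeks they stood at −0.827 and −1.285, and in every wild-type library of 6 weeks above 0. In the comparison of the groups, 70 of 70 oxidative phosphorylation genes and 56 of 67 mitochondrial ribosomal proteins were above 0, and 7 of 46 biogenesis genes and 2 of 19 mTOR and Myc regulators were, with 0 called in each list (48, 19, 16 and 5 with an unadjusted p under 0.05). Genes of the ribosome's proteins and of its assembly thus stood in opposite directions. The median for members with a tract at the start was 1.85 and for those without one 1.84.

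Markers of other cells were also high in the library. Summed levels in the second library labelled knockout were 3605 CPM for 8 fibroblast markers, 1408 CPM for 6 endothelial markers, 7857 CPM for 5 adipocyte markers and 2227 CPM for 6 myeloid markers. In the wild-type luminal libraries of 6 weeks they were 16.2 and 41.3, 8.20 and 13.8, 13.3 and 15.3, and 144 and 295 CPM. The first knockout library held 108, 117, 104 and 907 CPM, each above both wild-type libraries and below the second. Luminal markers summed to 9517 CPM in the second library and 16608 CPM in the first, against 17299 and 24943 CPM in wild type. Of the second library's 5 adipocyte markers 3 were at 0, and of the 2 that were tested between the groups 1 was above 0. In the same library 57.0% of all reads aligned to more than 1 place, the most of any library, and 76.2% were not assigned to a gene. Their part in the level of the ribosomal protein genes was not tested.

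In basal cells of 6 weeks, members took 1.60%, 1.90% and 3.55% of counted reads in wild type and 2.20% and 2.19% in knockout. edgeR called 0 of 77 members (0 with an unadjusted p under 0.05) and DESeq2 0, and 0% of all genes were called. The median was −0.26, and 0.21 without the third library labelled wild type, whose Cdkn1b stood below that of the libraries labelled knockout. That library was above the mean of the other 4 basal libraries in 75 of 75 members, by a median of 1.11, and 77.0% of its reads were not assigned to a gene. The direction in basal cells thus turned on 1 library. The genotype effect in luminal minus that in basal cells had a median of 2.12. Of these libraries all but the third wild-type basal one are pairs from 4 animals, and with the animal as a block, an alternative chosen after seeing the data, the median was 1.33 with 0 members and 0% of all genes called. Without the block, edgeR and DESeq2 each called 0 members, where 0% of all genes were called by edgeR. Of the 77 members 27 had an unadjusted p under 0.05, as had 7.42% of all genes. Without the first knockout luminal library 27 members passed the adjusted threshold, all higher, where 2.19% of all genes were higher and the median of all genes was −0.77, and without the second the median was 0.79 with 0 called.

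At 4 weeks a single library led again. Members took 1.91%, 2.09% and 2.24% of counted reads in wild-type luminal cells and 5.06%, 1.92% and 2.82% in knockout luminal cells. Rpl19 stood at 465.5, 366.9 and 431.9 CPM in wild type and at 1398, 443 and 537 CPM in knockout. The first library labelled knockout, whose Cdkn1b lay in the wild-type range, was above the mean of the other 5 in 77 of 77 members, by a median of 1.66, from 0.50 for Rpl3 to 2.47 for Rplp1. The median log2 fold change between genotypes was 0.91, with 79 of 79 members above 0, and 0.28 without that library. edgeR and DESeq2 each called 0 of 79, and 0% of all genes passed. Before adjustment 7 members had a p under 0.05 (Rpl23, Rpl23a, Rpl31, Rpl34, Rpl35, Rps16 and Rps27a), as had 3.6% of all genes. For 33 members every knockout library was above every wild-type library, where 5.54% of all genes were.

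Oxidative phosphorylation genes were above the mean of the other 5 luminal libraries of 4 weeks by 1.55 in that first library labelled knockout, and mitochondrial ribosomal proteins by 1.31. Fibroblast, endothelial and adipocyte markers summed there to 50.6, 10.6 and 13.4 CPM, within the ranges of the wild-type luminal libraries of 4 weeks for endothelial and adipocyte markers and below them for fibroblast markers. Ribosomal and respiratory genes were thus high in this library as in the second library labelled knockout of 6 weeks. Fibroblast, endothelial and adipocyte markers were not. Myeloid markers summed to 778 to 1197 CPM over the knockout luminal libraries of 4 weeks and to 677 to 936 CPM over the wild-type ones. The part of other cells in the level was not tested. Biogenesis genes in the first library labelled knockout of 4 weeks were at 0.06, not below 0 as in the second of 6 weeks.

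In basal cells of 4 weeks, members took 2.28%, 1.31% and 1.47% of counted reads in wild type and 2.59% and 1.66% in knockout. The median log2 fold change was 0.59, and −0.07 without the first knockout basal library. That library was above the mean of the other 4 basal libraries in 75 of 75 members, by a median of 1.13. edgeR called 0 of 79 members (0 with an unadjusted p under 0.05) and DESeq2 0, and 0% of all genes were called. The genotype effect in luminal cells of 6 weeks minus that of 4 weeks had a median of 0.84. edgeR called 0 members (0 with an unadjusted p under 0.05), where 1.21% of all genes were called, and DESeq2 0. It was −0.53 without the second library labelled knockout of 6 weeks and 1.62 without the first library labelled knockout of 4 weeks.

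**Figure D5:**
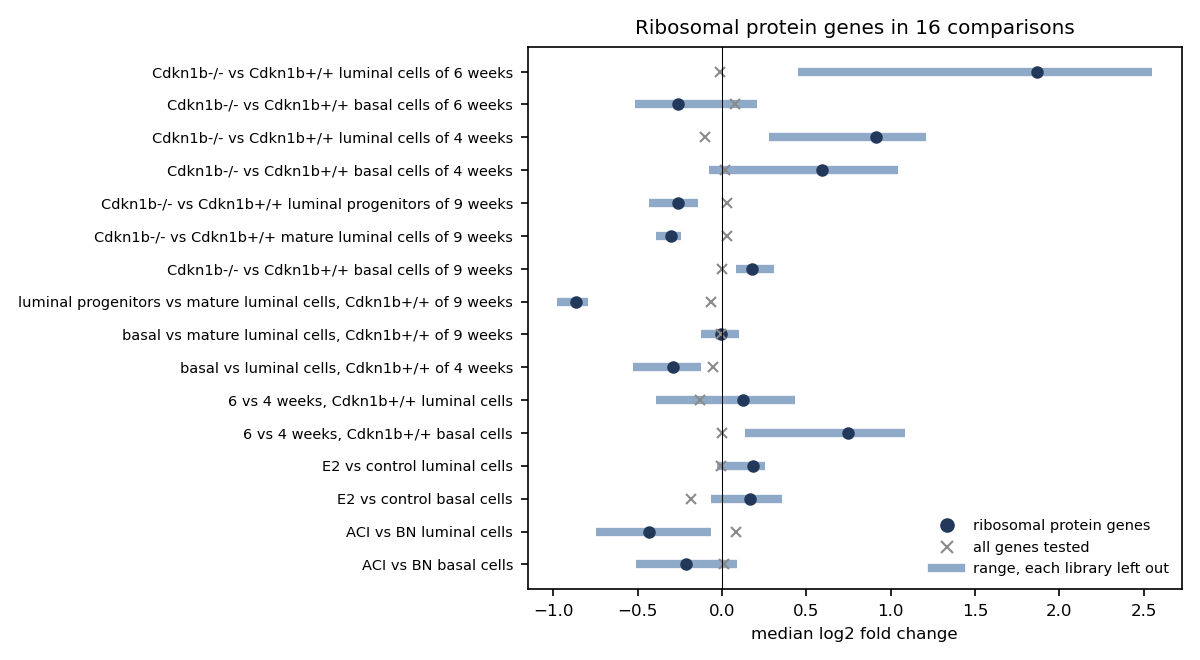
Median log2 fold change of the tested ribosomal protein genes in each comparison (points), beside the median of all tested genes (crosses), in log2 units, with bars for the range when each library was left out in turn. Luminal progenitors against mature luminal cells lie at −0.87 and the genotype effect in luminal cells of 6 weeks at 1.87, while most others lie within 1 of 0.

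With age in wild-type rats, members did not pass in luminal cells. Between 6 and 4 weeks the median was 0.12, with 51 of 78 members above 0, and −0.39, with 10 of 81 above 0, without the second library of 6 weeks. edgeR called 0 (0 with an unadjusted p under 0.05), where 3.1% of all genes were called, and DESeq2 0. In basal cells 75 of 78 members were above 0, with a median of 0.75, but the median was 0.14 without the third library of 6 weeks. edgeR called 1 member, where 10.5% of all genes were called. It was Rps4y2, at 10.8, 7.58 and 8.53 CPM at 4 weeks and 0.362, 2.40 and 0.128 CPM at 6 weeks (log2 fold change −3.15, SE 0.83, adjusted p = 0.023). The 3 libraries of 6 weeks held 5, 40 and 1 of its counts. In the same basal comparison 32 of 46 biogenesis genes and 11 of 35 initiation factors were called higher. The 2 knockout basal libraries of 6 weeks stood at 7.25 and 7.66 CPM for Rps4y2, above all 3 wild-type ones.

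In the E2 experiment, members took 0.717% to 1.22% of counted reads and were at their lowest in the series. In luminal cells members took 0.780% and 0.976% in untreated ACI, 1.11% and 1.21% in E2-treated ACI, and 0.917% and 1.13% in untreated and treated BN rats. In luminal cells the share was thus higher with E2 in each strain, but each BN group is 1 library. In basal cells members took 0.889% and 0.717% in untreated and 0.763% and 1.22% in treated ACI rats, which overlap, and 0.986% and 0.985% in untreated and treated BN rats. The median log2 fold change in luminal cells was 0.19, with 60 of 78 members above 0, and −0.03 without either BN library. edgeR and DESeq2 each called 0 members (0 with an unadjusted p under 0.05 by edgeR), and 0% of all genes were called by edgeR. Rpsa had 0.67 (SE 0.34, adjusted p = 1.00) and Rpl22l1 −0.74 (SE 0.52, adjusted p = 1.00). Neither was beyond the spread.

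In basal cells the median E2 difference was 0.17, with 61 of 78 members above 0, and −0.067, with 35 above 0, without the second treated ACI library. edgeR called 0 (0 with an unadjusted p under 0.05), where 0% of all genes were called, and DESeq2 0. Over both strains, 12 members were higher in every treated library than in every untreated one, where 3.21% of all genes were. ACI libraries were lower than BN libraries in luminal cells by a median of 0.43 on the log2 scale, with 4 of 78 members above 0 and 37 lower without overlap, where 7.85% of all genes were. Scaled by total counts the median was 0.06 where that of all genes was 0.56. edgeR called 0 members between strains in luminal cells (1 with an unadjusted p under 0.05), where 0% of all genes were called, and DESeq2 0. In basal cells the median was −0.21 with 14 members above 0, and 0.090 with 46 above 0 without the untreated BN library, so the direction turned on 1 library. There edgeR called 0 (0 with an unadjusted p under 0.05), where 0% of all genes were called, as did DESeq2.

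Paralogs were set beside their partners. Between wild-type progenitors and mature luminal cells, Rpl22 was lower (log2 fold change −0.89, adjusted p = 0.040), as was Rps27 (−1.06, adjusted p = 0.032). Their paralogs Rpl22l1 (−0.65, adjusted p = 0.22) and Rps27l (−0.70, adjusted p = 0.22) did not pass, and the difference within pairs was not tested. Rpl22l1 stood at 109, 65.0, 128 and 68.0 CPM in progenitors and at 184 and 110 CPM in mature luminal cells, which overlap. In the second luminal library labelled knockout of 6 weeks, Rpl22 stood at 371 CPM and Rpl22l1 at 608 CPM, and Rps27 at 3281 CPM and Rps27l at 936 CPM. Rps4x stood there at 1045 CPM and Rps4y2 at 19.1 CPM, where Rps4y2 was at 18.7 CPM in the first knockout library. Rpl39l had 0 counts in 26 libraries and Rpl3l at most 72 counts, so neither could be followed beside Rpl39 and Rpl3.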

How the data were processed

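The deposited files hold raw counts of reads per gene, 1 file per library, which the authors made from SMARTer low-input libraries sequenced from 1 end. The submitters' processing notes name STAR 2.5.1b, HTSeq and FastQC and the build rn6, and the counting mode and strand setting are not given in the sources used here. Rows without a gene (reads aligned more than once, outside genes or unaligned) held 47.1% to 77.0% of the reads and stayed out of library sizes. Peak files of the progesterone receptor experiment were not used here.

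Counts were analysed in R 4.3.3 with edgeR 4.0.16 (filterByExpr, TMM factors, glmQLFit and glmQLFTest), in 1 fit per experiment and with DESeq2 1.42.0 as an alternative. Genes past a Benjamini-Hochberg adjusted p of 0.05 over all tested genes are called. The steps were tested on simulated data. CPM values use TMM factors over all 48 libraries and log2 values a prior count of 2. Libraries are replicates as labelled. Whether each is 1 animal is not stated for 9 weeks, so p-values there measure the spread between libraries, which may be technical.

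At 9 weeks, libraries of 1 genotype with the same number in the title deviated together (correlations of 0.26 to 0.80 over 12809 genes between cell types), so the number was used as a block for comparisons of cell types. Between genotypes the correlations were −0.36 to 0.00. At 4 weeks basal and luminal libraries of 1 animal had correlations of 0.27, 0.17 and 0.11, and blocking on the animal changed no call. At 6 weeks these correlations were 0.086, 0.083, −0.0060 and −0.0060.

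The members and the other gene lists were chosen with earlier results of these data known. Members were named by rule: those the study mentions, the 3 largest called changes per direction without overlap, the highest and lowest levels and spreads, and fixed roles and paralogs. Alternatives were other scalings (RLE, total counts), filters (none, at least 10 counts in every library), DESeq2, the compared libraries alone, the replicate block and leaving out each library. Start sequences came from RefSeq promoters of GRCr8, read with Python 3.11.15. Values of some genes, and an alternative that added genes to the members, are not reported here.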

Additional observations from a re-analysis of the deposited data

How the results depend on the processing

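Among 916 recomputed values, 428 of those that answer a comparison and 317 of those for single genes kept their direction and their side of the threshold, or moved little. Of the others that answer a comparison, 38 moved further, 12 lost calls, 6 gained them and 3 turned direction. For single genes, 78 lost the call, 34 gained it and 0 turned direction. The cause of the changes below was not tested.

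Scaled by total counts, 20 members were lower in knockout progenitors (median −0.60), and the medians were −0.46 for knockout mature luminal cells, −0.077 for knockout basal cells of 9 weeks, −0.63 for progenitors against mature luminal cells, 0.18 for basal against mature luminal cells (1 member called, now higher), 0.36 for E2 in luminal cells, and 0.063 and −0.043 for ACI against BN luminal and basal cells. With RLE factors the median for knockout mature luminal cells was −0.39, and with DESeq2 −0.39. DESeq2 called 15 members in knockout luminal cells of 6 weeks, 1 in knockout progenitors and 3 (2 higher, so the direction turned) for wild-type basal cells of 6 against 4 weeks, where at least 10 counts in every library or the compared libraries alone left 0. The compared libraries alone also left 0 for basal against mature luminal cells. Rpl37a, higher in progenitors, was no longer called with RLE factors, with no filter or in the compared libraries alone.

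With the replicate block, 74 members were called between wild-type progenitors and mature luminal cells and 3 between basal and mature luminal cells. Between genotypes of 9 weeks, where equal numbers did not pair the libraries, the block left 0 called. With the animal as a block, chosen after seeing the data, the genotype effect in luminal minus basal cells of 6 weeks had a median of 1.33 with 0 called.

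Leaving out each library gave 0 to 53 called members for knockout luminal cells of 6 weeks (median 0.45 to 2.55), and medians of 0.28 to 1.21 for knockout luminal and −0.075 to 1.05 for knockout basal cells of 4 weeks, −0.39 to −0.24 for knockout mature luminal cells, −0.39 to 0.43 and 0.14 to 1.08 for wild-type luminal and basal cells of 6 against 4 weeks, −0.027 to 0.26 and −0.067 to 0.36 for E2 in luminal and basal cells, and −0.75 to −0.067 and −0.51 to 0.090 for ACI against BN. Without the untreated BN library the E2 medians were −0.025 in luminal and 0.34 in basal cells. Leaving out libraries gave 0 to 51 called for progenitors against mature luminal cells (14 without the first Cd49b+ library), 0 to 1 for basal against mature luminal cells and 0 to 1 for basal cells of 6 against 4 weeks, where without the first library of 6 weeks the 1 call was higher. For the genotype effect in luminal minus basal cells of 6 weeks it gave 0 to 27 (median 0.79 to 2.80), and for that of 6 minus 4 weeks 0 to 3 (median −0.53 to 1.62).

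Over all reads as the denominator, members took 1.60% in knockout and 0.615% in wild-type luminal cells of 6 weeks, 0.941% in wild-type progenitors and 1.07% in wild-type mature luminal cells. Where a group has 1 or 2 libraries, a lone library left by an omission is assumed to vary like the others. Low counts limited what could be read from 9 members, and the cause of these low counts was not tested.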
